A study of Homo sapiens with 12 samples.

Results

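The vacuolar ATPase (V-ATPase), the lysosomal cathepsins and the lysosome-associated membrane proteins (LAMP) were followed in RNA-sequencing libraries of U937, a myelomonocytic acute myeloid leukemia (AML) cell line. Genes were taken by symbol, as V0 and V1 subunits with the accessory proteins ATP6AP1 and ATP6AP2, as cathepsins, and as LAMP1 to LAMP3. The symbols matched 42 of 44786 genes in the table, namely 24 of the V-ATPase, 15 cathepsins and 3 LAMP genes, and 374 of 197782 transcript rows. Each gene was represented by the row with its highest mean over all libraries.

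The 12 libraries comprised 3 of untreated cells, 3 of cells treated with decitabine (DAC, a hypomethylating nucleoside) at 200 nM, 3 with all-trans retinoic acid (ATRA) at 1 µM, and 3 with DAC+ATRA. DAC was given daily on 3 days and ATRA together with the last DAC dose, and the labels give a medium with 20% FCS and 5 ng/ml GM-CSF for all cultures, where the methods name 10% FCS and no GM-CSF. Treated cells are labelled 72 h and untreated cells 96 h, while the design text and the methods give harvest at 72 h without setting the untreated cells apart. The labels call the control cells untreated, and the methods state in general that controls received the vehicles. The replicates came from 1 cell line. The paper calls its U937 triplicates for accessibility and methylation technical and does not state the kind for RNA sequencing. The p-values therefore measure only the spread between these libraries.

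Libraries held 8042435 to 10683593 counted reads (median 9874622), of which mitochondrial transcripts took 40.6 to 42.5% in untreated, 37.0 to 40.4% in DAC, 38.9 to 41.1% in ATRA and 36.3 to 38.3% in DAC+ATRA libraries. The untreated range overlapped neither the DAC nor the DAC+ATRA range. Of 10 myelomonocytic marker genes, 9 had a mean of at least 10 normalized reads, while CD68 averaged 0.7. Their sums ran from 54582 to 61000 normalized reads in untreated, 26852 to 40646 in DAC, 32968 to 44846 in ATRA and 23726 to 25180 in DAC+ATRA libraries. MPO alone held 89.8 to 90.7% of that sum in untreated and 59.8 to 61.4% in DAC+ATRA libraries. Without MPO the sums went the other way, with 5381 to 5841, 6711 to 8157, 6712 to 7443 and 9527 to 9728 in the same order. All 3 erythroid markers were at 0 and none of 4 epithelial markers reached 10. Of 4 T-cell markers CD2 alone reached 10, and the summed T-cell markers ran from 2.76 to 10.2 in untreated, 297 to 390 in DAC, 4.55 to 9.50 in ATRA and 135 to 179 in DAC+ATRA libraries. Of 3 B-cell markers CD79A alone did so, and the sums were 132 to 143, 518 to 533, 227 to 374 and 1314 to 1393 in the same order. CD3E averaged 0.1 and MS4A1 0.4, and the part of these shifts in the results below was not tested. In bulk RNA, fewer expressing cells and less RNA per cell cannot be told apart.

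The V-ATPase pumps protons into lysosomes: the cytosolic V1 sector hydrolyses ATP and the membrane V0 sector carries the protons. The low pH it creates activates the cathepsins, proteases of cysteine, aspartic or serine type that degrade proteins in the lysosome and, in myeloid cells, process antigens and granule enzymes. LAMP1 and LAMP2 coat the lysosomal membrane. Many genes of this set carry an E-box that is bound by the MiT/TFE factors, among them TFEB.

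That E-box defines the CLEAR network of lysosomal genes, so the promoter letters of members that hold it are shown first. RefSeq (GRCh38.p14) gave a window of 300 bases (250 before to 50 after the start) for 28 of the 42 genes, in 35 windows. CACGTG, the palindromic core of the E-box, stood in 9 of the 35 windows (25.7%), from 8 of the 28 genes, and in 7.26% of 35116 windows of the same length. The genes were ATP6V0B, ATP6V0D1, ATP6V0E2, ATP6V1G1, CTSA, CTSD, CTSF and LAMP1. The longer TCACGTGA, which contains CACGTG and was likewise sought on both strands, stood in 4 of the 35 windows (11.4%, against 0.980% of all windows). A DR5 retinoic acid response element, here AGGTCA repeated directly with 5 bases between, stood in none of them and in 0.00570% of all windows. The 35 windows held a median of 26 CpG, against 14 over all windows. A match of letters is a description of the window and not a binding site. The 250 bases before the start are given 5′ to 3′, CACGTG in capitals, for the 4 genes with a match that also passed the test against untreated cells in at least 1 comparison below. They lie at chr16:67481158-67481407 (ATP6V0D1, minus strand), chr20:45891085-45891334 (CTSA, plus strand), chr11:1763928-1764177 (CTSD, minus strand) and chr13:113296989-113297238 (LAMP1, plus strand). The tested rows of ATP6V0D1 (chr16:67438014-67441732) and CTSD (chr11:1752755-1762403) do not start at these windows. For these genes the letters are not those directly before the tested row. The LAMP1 row starts directly after its letters, and the CTSA row at chr20:45891376.
ATP6V0D1: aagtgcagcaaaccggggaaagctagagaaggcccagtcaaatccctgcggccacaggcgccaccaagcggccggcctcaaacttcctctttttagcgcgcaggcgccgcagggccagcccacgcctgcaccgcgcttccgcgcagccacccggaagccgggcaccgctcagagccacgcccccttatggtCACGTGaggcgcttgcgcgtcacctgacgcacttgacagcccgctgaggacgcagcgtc
CTSA: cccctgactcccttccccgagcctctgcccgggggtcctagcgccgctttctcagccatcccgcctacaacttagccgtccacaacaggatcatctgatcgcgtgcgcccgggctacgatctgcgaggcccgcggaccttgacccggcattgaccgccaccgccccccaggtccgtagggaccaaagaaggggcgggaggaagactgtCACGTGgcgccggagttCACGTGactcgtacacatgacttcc
CTSD: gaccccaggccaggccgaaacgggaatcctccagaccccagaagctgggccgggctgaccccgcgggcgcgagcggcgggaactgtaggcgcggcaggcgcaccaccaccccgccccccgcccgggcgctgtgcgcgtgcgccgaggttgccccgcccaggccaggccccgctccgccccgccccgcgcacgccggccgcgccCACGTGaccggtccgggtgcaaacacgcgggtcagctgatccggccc
LAMP1: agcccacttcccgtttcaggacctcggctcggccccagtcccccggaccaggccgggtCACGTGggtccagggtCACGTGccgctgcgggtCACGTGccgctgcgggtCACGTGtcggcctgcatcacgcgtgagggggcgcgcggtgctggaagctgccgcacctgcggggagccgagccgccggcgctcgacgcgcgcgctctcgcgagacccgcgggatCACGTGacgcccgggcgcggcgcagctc
ATP6V0D1 and CTSD had 1 match each, its first base at -59 and -47 from the start. CTSA had 2, at -42 and -25. LAMP1 had 6, of which 5 lie in the printed letters at -192, -176, -159, -142 and -28, while the sixth begins at -1 and runs over the start.

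Expression is given as normalized read counts, that is reads per transcript divided by 1 size factor per library. A count of 3 reads corresponded to 2.50 to 3.71 normalized reads. Of the 42 genes, 24 reached at least 10 normalized reads in at least 3 libraries and were tested, and 18 did not. No read was counted for 4 of these (ATP6V0A4, ATP6V1G2, ATP6V1G3 and CTSV). How reads shared by overlapping transcripts were counted is not given in the sources used here, so a low row does not show that the gene is silent, and member levels were not compared between genes. The picked row was annotated protein-coding in GENCODE 44 for 15 of the 24. It was a retained-intron, nonsense-mediated-decay or undefined-CDS transcript for 8 (ATP6AP1, ATP6V0B, ATP6V0D1, ATP6V1B2, ATP6V1E2, CTSA, CTSC and CTSH). The ATP6V0A1 row, ENST00000592831, was not matched there and its type is unknown. For the 8 the values describe that row and not the coding transcript.

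Differences are log2 fold changes (log2FC) on log2(normalized read count + 1) with their standard error, called at a limma adjusted p under 0.01 over 9057 transcripts. With DAC, 9 of the 24 rows rose and 2 fell, where 30.6% of all transcripts were called higher and 8.69% lower. With ATRA 3 rose and 1 fell, against 6.47% and 2.66% of all transcripts. The row that fell, ATP6V0D2, reached 10 normalized reads in no ATRA library, so its fall is a description. With 10 normalized reads required in every library, 3 of 17 rows rose and 0 fell with ATRA. With DAC+ATRA 10 rose and 4 fell, against 32.6% and 14.2%. The lower count with DAC+ATRA was 2 when untreated library 1, 2 or 3 or DAC+ATRA library 10 or 11 was left out, and summing the rows of each symbol gave 13 higher and 2 lower of 26. The higher count with ATRA was 2 without untreated library 2 or 3 or ATRA library 7. The share called higher was 37.5%, 12.5% and 41.7%, beside 30.6%, 6.47% and 32.6% of all transcripts. The 3 comparisons share their untreated libraries and are not independent. The median of all transcripts was itself 0.22 for DAC, 0.00 for ATRA and 0.20 for the combination, and dropped to between 0.02 and 0.09 with DAC and 0.06 and 0.07 with DAC+ATRA under other scalings. Relative to that median, the 24 rows had a median log2FC higher by 0.22, 0.06 and 0.43 in the same order. The cathepsins and the proton pump differed in their counts of called rows, taken on the picked row of each gene. Of 8 tested cathepsins, 6 rose and 1 fell with DAC, 3 rose with ATRA, and 7 rose and 1 fell with DAC+ATRA. Of 14 tested V-ATPase rows, 2 rose and 1 fell with DAC, 1 fell with ATRA, and 3 rose and 3 fell with DAC+ATRA. Their median log2FC relative to all transcripts was 0.68, 0.33 and 1.22 for the cathepsins and 0.11, -0.03 and 0.09 for the V-ATPase, in that order again. ATP6V0A1, ATP6V0E1 and CTSK reached 10 normalized reads in no untreated library. They entered the test through treated groups where they are high, so their differences are a description. The medians above include these 3 rows. Before the median of all transcripts was taken off, the cathepsin median was 0.90 with DAC and 1.43 with DAC+ATRA. Without CTSK it was 0.70 (CTSB) and 1.28 (CTSZ). Without these 3 rows, 33.3%, 14.3% and 38.1% of the remaining 21 were called higher, close to the shares of all transcripts with DAC and DAC+ATRA. Of the cathepsins then left, 5 of 7 rose and 1 fell with DAC, and 6 rose and 1 fell with DAC+ATRA. Of the remaining 12 V-ATPase rows, 1 rose and 1 fell with DAC, and 2 rose and 3 fell with DAC+ATRA. The gap between the families with DAC+ATRA was smaller when the rows of each symbol were summed. ATP6V0B (log2FC 1.05) and ATP6V1D (0.84) were then also called higher, and ATP6V1E2 and CTSC were no longer called lower. All cathepsins called higher on their picked row stayed so. How far low read numbers limited the V-ATPase calls was not tested.

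**Figure D1:**
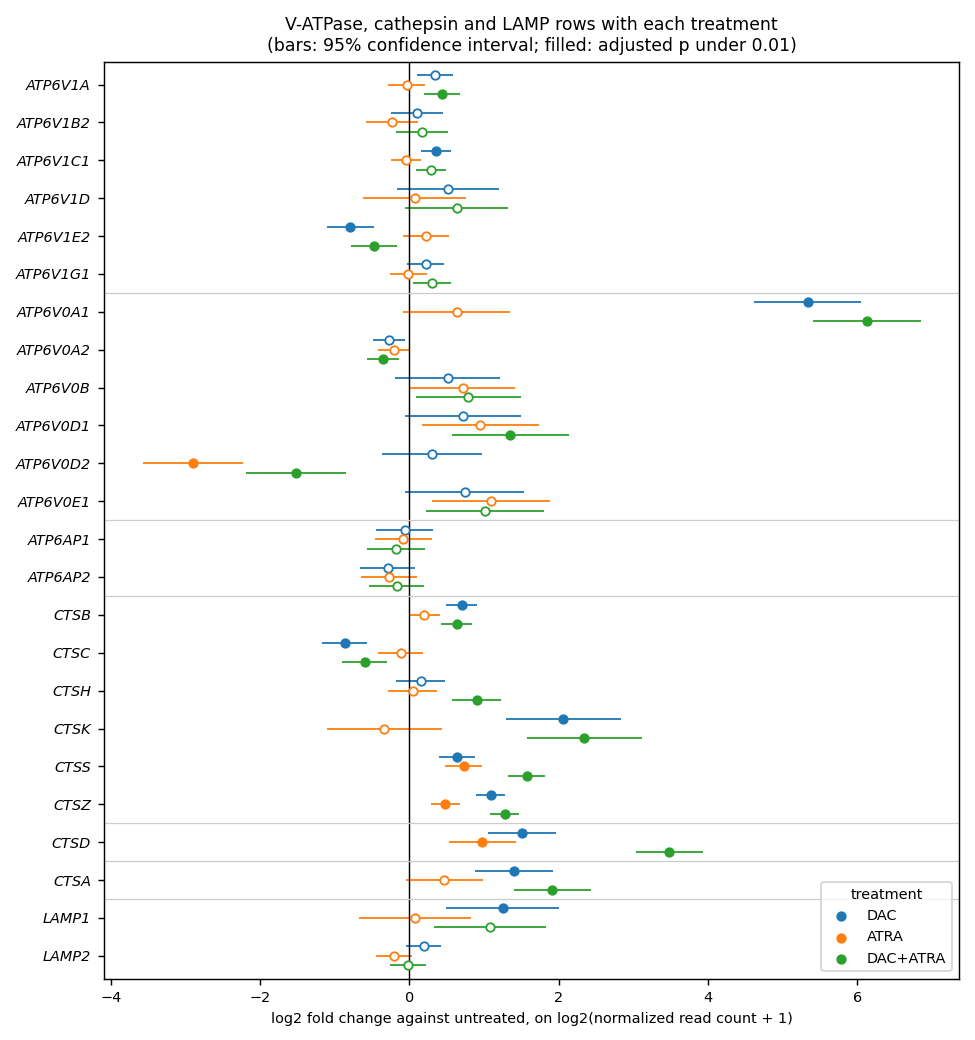
The x axis shows the log2 fold change against untreated cells for the 24 tested rows, 1 line per gene, with DAC, ATRA and DAC+ATRA in colour, 95% confidence intervals as bars and filled points for adjusted p under 0.01. Most cathepsin points lie right of 0 with DAC and DAC+ATRA, ATP6V0A1 stands far right at 5.34 and 6.13, and ATP6V0D2 stands left at -2.90 with ATRA.

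CTSD, the major aspartic protease of the lysosome, showed the largest cathepsin difference with DAC+ATRA. Its row (ENST00000367196, chr11:1752755-1762403, protein-coding) held 21.1, 14.6 and 15.7 normalized reads in untreated libraries, 37.8, 51.6 and 63.7 with DAC, 40.1, 28.2 and 35.8 with ATRA, and 197, 189 and 213 with DAC+ATRA. No treated library overlapped the untreated ones, and the DAC+ATRA libraries lay above all others. The means were 17.1 ± 3.51, 51.1 ± 12.96, 34.7 ± 6.03 and 200 ± 11.8 (SD, n = 3 each). The log2FC was 1.51 ± 0.22 with DAC (SE, adjusted p = 6.4e-06), 0.98 ± 0.22 with ATRA (adjusted p = 0.0030) and 3.48 ± 0.22 with DAC+ATRA (adjusted p = 2.1e-11). DAC+ATRA exceeded DAC by 1.98 and ATRA by 2.50. The excess of the combination over the sum of both single effects was 1.00 on the log2 scale (95% confidence interval 0.36 to 1.63) and missed the threshold (adjusted p = 0.069). The ATRA call was lost without untreated library 2 (log2FC 0.88, adjusted p = 0.021), without untreated library 3 (0.93, 0.015) or without ATRA library 7 (0.87, 0.020), and also in the fit of the compared groups alone (0.98, adjusted p = 0.021). An exact two-sided permutation test of 3 against 3 libraries cannot go below 0.1, the value found for CTSD in each of these comparisons.

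CTSS, a cysteine protease that trims the MHC class II invariant chain in antigen-presenting cells, rose with every treatment. Its row held 582, 535 and 509 normalized reads in untreated libraries, 891, 892 and 756 with DAC, 1020, 924 and 768 with ATRA, and 1450, 1623 and 1772 with DAC+ATRA. The 4 groups formed 3 levels, with untreated lowest, DAC and ATRA overlapping, and DAC+ATRA highest. The log2FC was 0.64 ± 0.12 with DAC (adjusted p = 0.00012), 0.73 ± 0.12 with ATRA (adjusted p = 0.00012) and 1.57 ± 0.12 with DAC+ATRA (adjusted p = 3.9e-10). DAC+ATRA lay above DAC by 0.93 and above ATRA by 0.84, both called. The excess over the sum of the single effects was 0.20 (95% confidence interval -0.15 to 0.55, adjusted p = 0.59).

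CTSZ, a carboxypeptidase of the cysteine type, held 1423, 1551 and 1455 normalized reads in untreated libraries, 3432, 2931 and 3082 with DAC, 2156, 2175 and 1867 with ATRA, and 3601, 3629 and 3527 with DAC+ATRA. All 4 groups were separate, in the order untreated, ATRA, DAC and DAC+ATRA. The log2FC was 1.09 ± 0.09 with DAC (adjusted p = 4.2e-09), 0.48 ± 0.09 with ATRA (adjusted p = 0.00089) and 1.28 ± 0.09 with DAC+ATRA (adjusted p = 2.5e-10). DAC+ATRA exceeded DAC by 0.19 ± 0.09, which was not called (adjusted p = 0.18).

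CTSA, a serine carboxypeptidase that also protects lysosomal galactosidase and neuraminidase, was counted on a retained-intron transcript (ENST00000484855, chr20:45891376-45898949). The row held 13.8, 15.5 and 24.9 normalized reads in untreated libraries, 35.7, 60.4 and 50.8 with DAC, 23.2, 27.3 and 23.3 with ATRA, and 60.6, 78.9 and 68.0 with DAC+ATRA. DAC and DAC+ATRA libraries all lay above the untreated ones, while ATRA overlapped them. The log2FC was 1.40 ± 0.25 with DAC (adjusted p = 7.7e-05), 0.47 ± 0.25 with ATRA (adjusted p = 0.24) and 1.92 ± 0.25 with DAC+ATRA (adjusted p = 1.2e-06).

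CTSB, a cysteine endopeptidase and carboxypeptidase of most cell types, held 815, 788 and 815 normalized reads in untreated libraries, 1366, 1338 and 1235 with DAC, 1003, 943 and 843 with ATRA, and 1167, 1354 and 1243 with DAC+ATRA. DAC and DAC+ATRA overlapped each other and lay above the remaining groups. The log2FC was 0.70 ± 0.10 with DAC, 0.20 ± 0.10 with ATRA (not called) and 0.64 ± 0.10 with DAC+ATRA.

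CTSK, the collagen-degrading cysteine protease known from osteoclasts, was nearly uncounted without DAC. Its row held 1.84, 5.46 and 4.62 normalized reads in untreated libraries, 20.5, 16.6 and 18.9 with DAC, 4.22, 1.82 and 2.50 with ATRA, and 21.7, 22.1 and 24.7 with DAC+ATRA. The DAC-containing groups did not overlap the groups without DAC. The row passed the filter through the DAC-containing libraries alone, so no test is given. Its log2FC was 2.06 ± 0.37 for DAC, -0.33 ± 0.37 for ATRA and 2.34 ± 0.37 for both together. CTSK (chr1:150796208-150808260) and CTSS (chr1:150730188-150765778) lie on the same strand with 30429 bases between them. The difference between both genes was not tested.

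CTSH, an aminopeptidase of the cysteine type, was called with DAC+ATRA and with neither agent alone. Its retained-intron row held 64.3, 72.8 and 65.6 normalized reads in untreated libraries, 82.2, 70.1 and 73.7 with DAC, 69.7, 61.9 and 78.2 with ATRA, and 125, 138 and 119 with DAC+ATRA. The first 3 groups overlapped and every DAC+ATRA library lay above them. The log2FC was 0.15 ± 0.16 for DAC, 0.04 ± 0.16 for ATRA and 0.90 ± 0.16 for both together (adjusted p = 5.0e-05), and DAC+ATRA exceeded DAC by 0.75 and ATRA by 0.86. The excess over the sum of the single effects was 0.70 (95% confidence interval 0.24 to 1.16) and missed the threshold (adjusted p = 0.076). Without DAC+ATRA library 11, the difference from DAC was 0.69 and no longer called (adjusted p = 0.013).

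CTSC, the dipeptidyl peptidase that activates the serine proteases of granules, was the one cathepsin row that fell. The retained-intron row held 245, 191 and 210 normalized reads in untreated libraries, 121, 129 and 104 with DAC, 222, 172 and 203 with ATRA, and 152, 132 and 141 with DAC+ATRA. Both DAC-containing groups lay below the other two. The log2FC was -0.86 ± 0.14 with DAC (adjusted p = 4.0e-05), -0.11 ± 0.14 with ATRA and -0.60 ± 0.14 with DAC+ATRA (adjusted p = 0.0014). The DAC+ATRA call was lost without untreated library 1 (-0.50, adjusted p = 0.013) and when all rows of the symbol were summed (-0.35, adjusted p = 0.032), where the DAC call held (-0.63). The protein-coding row ENST00000524463 was not called, with a log2FC of -0.26 with DAC and -0.02 with DAC+ATRA.

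**Figure D2:**
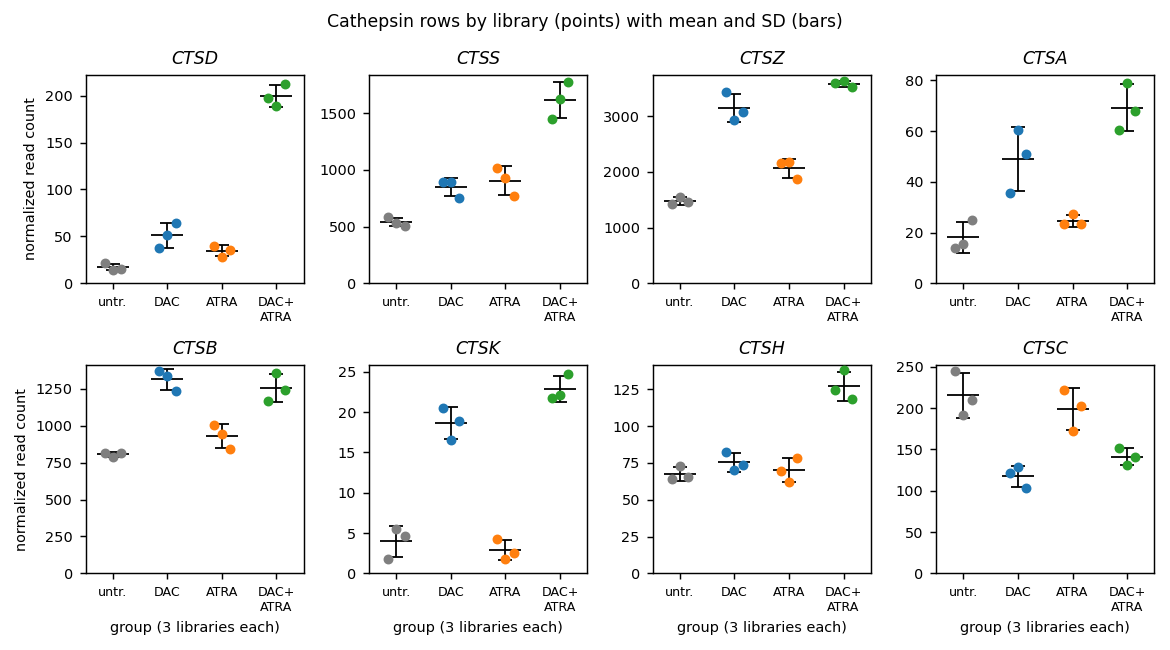
Each panel shows normalized read counts (y axis, from 0) of 1 cathepsin row in the 4 groups (x axis), with 1 point per library and the mean and SD of 3 libraries in black. CTSD and CTSH stand apart with DAC+ATRA, CTSK and CTSA are higher with DAC, and CTSC is lower in both DAC-containing groups.

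The other 7 cathepsins (CTSE, CTSF, CTSG, CTSL, CTSO, CTSV and CTSW) had too few reads to be tested. CTSG, a serine protease of azurophil granules counted on a retained-intron row, held 6.43, 10.01 and 4.62 normalized reads in untreated libraries, 7.57, 1.95 and 7.97 with DAC, 4.22, 1.82 and 0.832 with ATRA, and 1.81, 3.16 and 1.24 with DAC+ATRA. The ATRA and DAC+ATRA libraries all lay below the untreated ones. When no filter on low values was applied, its log2FC with DAC+ATRA was -1.38 and not called (limma adjusted p = 0.044). CTSL had no read in untreated libraries, at most 1 in any DAC or ATRA library, and 3.62, 5.26 and 2.47 normalized reads with DAC+ATRA. Without the filter the log2FC of the DAC+ATRA libraries was 2.22 against untreated and 1.91 against ATRA. These values rest on 2 to 5 reads per DAC+ATRA library and depend on the added 1, so they are a description and no test is given. CTSF had reads in DAC-containing libraries alone, at most 3.24 normalized reads. Apart from CTSL, none of the 14 untested members with any read was called against untreated cells in the fit without the filter.

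Among the V0 rows, ATP6V0A1, an isoform of the large a subunit that lines the proton path, showed the largest difference. Its row held 0, 0 and 0.924 normalized reads in untreated libraries, 47.6, 53.6 and 46.8 with DAC, 1.06, 0.910 and 0.832 with ATRA, and 100, 65.3 and 97.6 with DAC+ATRA. The DAC-containing groups did not overlap the others and did not overlap each other. The 3 untreated libraries held 1 read in all, against 146 with DAC and 252 with DAC+ATRA, so the ratio was 162 (95% counting interval 28.5 to 6422) and 288 (51.1 to 11402). The interval covers counting error only. The fitted log2FC depends on the added 1 for a row this low and was 5.34 ± 0.34 with DAC and 6.13 ± 0.34 with DAC+ATRA. The row passed the filter through the DAC-containing libraries alone, so no test against untreated cells is given. DAC+ATRA was not called against DAC (0.80, adjusted p = 0.13). The other 24 rows of the symbol together held 0 in untreated and ATRA libraries, 4.32, 9.74 and 2.99 with DAC and 17.2, 18.9 and 12.4 with DAC+ATRA.

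ATP6V0D2, an alternative d subunit known from osteoclasts, macrophages and kidney, was the one V-ATPase row that fell with ATRA. Its row (ENST00000285393, protein-coding) held 34.9, 48.2 and 38.8 normalized reads in untreated libraries, 62.7, 43.8 and 45.8 with DAC, 4.22, 8.19 and 2.50 with ATRA, and 16.3, 14.7 and 9.89 with DAC+ATRA. The ATRA-containing groups lay below both groups without ATRA, and ATRA alone was lowest. The log2FC was 0.31 ± 0.32 with DAC (adjusted p = 0.44), -2.90 ± 0.32 with ATRA and -1.52 ± 0.32 with DAC+ATRA (adjusted p = 0.00040). The log2FC of DAC+ATRA was -1.83 against DAC, which was called, and 1.38 against ATRA. No ATRA library reached 10 normalized reads, so the row passed the filter through the other groups. Its differences from the ATRA libraries are therefore a description, and no test is given for them. In the counts below the row is among the calls of DAC+ATRA against ATRA. That call was lost without DAC+ATRA library 10 (1.25) and with DESeq2 (1.37). It was also lost in the fit of the compared groups alone (1.38) and with edgeR without DAC library 6 (1.33). The deviation from the sum of the single effects was 1.07 (adjusted p = 0.22).

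ATP6V0D1, the common d subunit, was counted on a short retained-intron row (chr16:67438014-67441732). It held 10.1, 3.64 and 7.39 normalized reads in untreated libraries, 6.49, 17.5 and 12.9 with DAC, 15.8, 12.7 and 12.5 with ATRA, and 22.6, 16.8 and 16.1 with DAC+ATRA. ATRA and DAC+ATRA did not overlap untreated, while DAC did. It was called with DAC+ATRA (1.35 ± 0.37, adjusted p = 0.0042), but not without untreated library 2 (1.00), DAC+ATRA library 10 (1.21) or DAC+ATRA library 11 (1.41). The call was also lost with DESeq2 (1.27, adjusted p = 0.025) and with values scaled to library size (1.22, adjusted p = 0.011). Summed over all rows of the symbol, the DAC+ATRA log2FC was 1.45 and called.

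ATP6V0A2, the a subunit of the Golgi and endosomes, held 786, 870 and 819 normalized reads in untreated libraries, 753, 644 and 660 with DAC, 748, 669 and 722 with ATRA, and 599, 652 and 682 with DAC+ATRA. All treated libraries lay below the untreated ones. The decrease was called with DAC+ATRA (-0.36 ± 0.10, adjusted p = 0.0055), and not with DAC (-0.27, adjusted p = 0.035) or ATRA (-0.21, adjusted p = 0.20). With DAC it was called when the rows were summed (-0.33, adjusted p = 0.0091) and under 4 other scalings (-0.47 to -0.40). The DAC+ATRA call was lost without untreated library 2 or 3, without DAC+ATRA library 10 or 11 and with no filter on low values, and the log2FC stayed between -0.52 and -0.31 over the alternatives. ATP6V0B of the proteolipid ring gave 0.79 ± 0.34 with DAC+ATRA and was not called (adjusted p = 0.051). The V0 subunit ATP6V0E1, which reached 10 normalized reads in no untreated library, gave 1.02 ± 0.38 with DAC+ATRA as a description. ATP6V0B was called with DAC+ATRA when its rows were summed (1.05). ATP6V0C and ATP6V0E2 stayed below the level for testing, with at most 10.01 and 12.7 normalized reads.

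In the V1 sector the differences were small. ATP6V1A, the catalytic subunit, held 1617, 1754 and 1569 normalized reads in untreated libraries, 2109, 2414 and 1801 with DAC, 1813, 1605 and 1417 with ATRA, and 2082, 2152 and 2488 with DAC+ATRA. Both DAC-containing groups lay above untreated. The log2FC was 0.35 ± 0.12 with DAC (adjusted p = 0.017, not called), -0.04 with ATRA and 0.44 ± 0.12 with DAC+ATRA (adjusted p = 0.0029). The latter was not called without untreated library 1 (0.43) or 3 (0.41), without DAC+ATRA library 12 (0.36), or with values scaled to library size (0.29).

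ATP6V1C1, which regulates assembly of V1 with V0, held 1155, 1047 and 966 normalized reads in untreated libraries, 1327, 1362 and 1352 with DAC, 1076, 1048 and 937.2 with ATRA, and 1250, 1277 and 1335 with DAC+ATRA. Both DAC-containing groups lay above the groups without DAC. The log2FC of 0.35 ± 0.10 with DAC was called (adjusted p = 0.0044), and 0.29 ± 0.10 with DAC+ATRA was not (adjusted p = 0.015). Under scalings that brought the median of all transcripts nearer to 0 the DAC difference was 0.15 to 0.23 and no longer called. It was also not called without untreated library 2 (0.35) or 3 (0.29) or DAC library 5 (0.35) or 6 (0.35).

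ATP6V1E2, the E subunit isoform first known from testis, fell with DAC. Its undefined-CDS row held 115, 123 and 120 normalized reads in untreated libraries, 77.8, 67.2 and 61.8 with DAC, 146, 140 and 133 with ATRA, and 76.8, 85.3 and 95.2 with DAC+ATRA. The DAC-containing groups lay below the others, and ATRA lay above untreated without being called. The log2FC was -0.79 ± 0.15 with DAC (adjusted p = 0.00015), 0.23 ± 0.15 with ATRA and -0.48 ± 0.15 with DAC+ATRA (adjusted p = 0.0094). The protein-coding row ENST00000306448 was not called, at -0.66 with DAC (adjusted p = 0.034) and 0.04 with DAC+ATRA. Summed over rows, the decrease was called with DAC (-0.60) and not with DAC+ATRA (-0.31, adjusted p = 0.043). The DAC+ATRA call did not hold in 13 of 26 alternatives, among them leaving out any untreated library, DAC library 5, ATRA library 7 or 8, or DAC+ATRA library 10 or 11, with values between -0.50 and -0.40 in those.

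The remaining V1 and accessory rows were not called against untreated. With DAC+ATRA the log2FC was 0.17 for ATP6V1B2 (95% confidence interval -0.18 to 0.52), 0.63 for ATP6V1D and 0.30 for ATP6V1G1 (adjusted p = 0.035). ATP6V1D was called with DAC+ATRA when its rows were summed (0.84, adjusted p = 0.00985). It was -0.17 for ATP6AP1 (-0.56 to 0.21) and -0.17 for ATP6AP2, the prorenin receptor (-0.54 to 0.20). The 7 untested V1 genes held at most 10.7 normalized reads (ATP6V1E1) in any library, or 3.71 without ATP6V1E1 and ATP6V1F.

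LAMP1 (ENST00000332556, chr13:113297239-113323672) held 133, 89.2 and 60.0 normalized reads in untreated libraries, 174, 163 and 347 with DAC, 87.6, 149 and 64.1 with ATRA, and 197, 203 and 173 with DAC+ATRA. The DAC-containing libraries all lay above the untreated ones, and 1 DAC library, number 6, lay far above the other two. The log2FC was 1.25 ± 0.35 with DAC (adjusted p = 0.0087), 0.08 ± 0.35 with ATRA and 1.08 ± 0.35 with DAC+ATRA (adjusted p = 0.017, not called). The DAC call was lost in 15 of 26 alternatives. Among these were DESeq2 (1.11, adjusted p = 0.015), edgeR with TMM (1.08, adjusted p = 0.030), every other scaling, 3 other filters or choices of transcripts and a pseudocount of 0.1. Without DAC library 6 the value was 0.90 (adjusted p = 0.018) by limma and 0.64 by edgeR with TMM, and the call was also lost without untreated library 2 (1.25) or 3 (0.97) and without ATRA library 7 or 9. A retained-intron row of LAMP1 held 91.9, 128 and 109 normalized reads in untreated, 158, 196 and 221 in DAC, 132, 135 and 113 in ATRA and 176, 178 and 171 in DAC+ATRA libraries. Summed over its rows LAMP1 was called with DAC (1.01 ± 0.18) and with DAC+ATRA (0.85 ± 0.18). LAMP2, which also serves chaperone-mediated autophagy, was not called with any treatment, at -0.01 with DAC+ATRA (95% confidence interval -0.25 to 0.23). LAMP3 held at most 4.52 normalized reads.

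**Figure D3:**
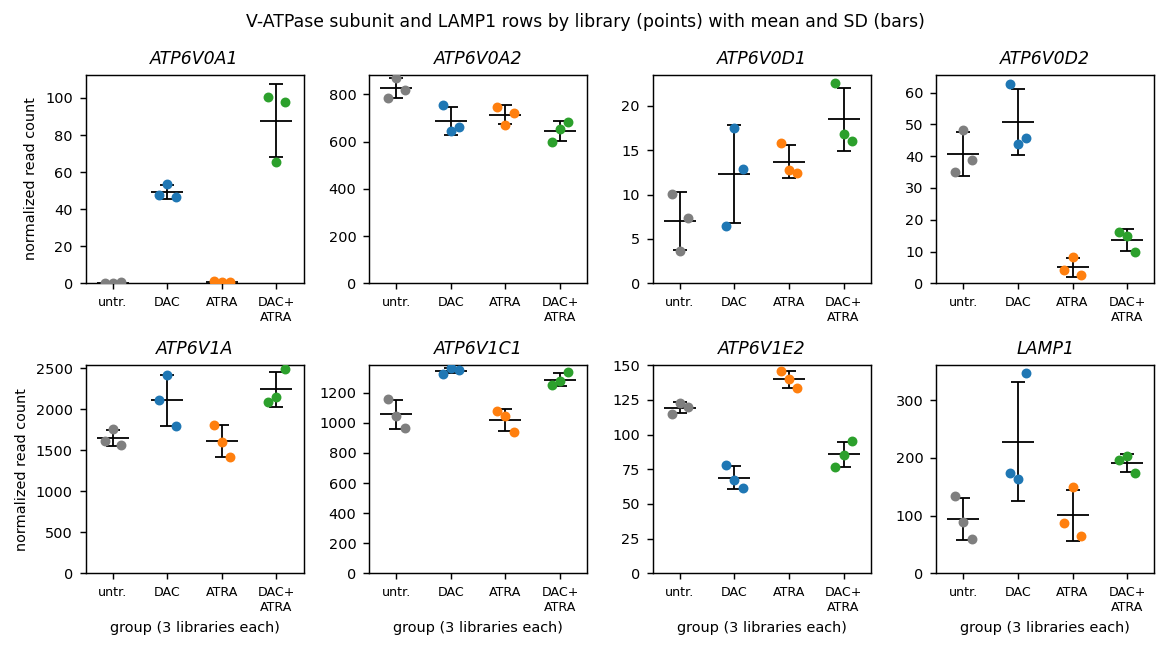
Each panel shows normalized read counts (y axis, from 0) of 1 row in the 4 groups (x axis), with 1 point per library and the mean and SD of 3 libraries in black. ATP6V0A1 lies at 0 to 1.06 without DAC and at 46.8 to 100 with it, ATP6V0D2 is low in both ATRA-containing groups, and 1 DAC library of LAMP1 reaches 347.

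Against the single agents, 3 of the 24 rows were higher (CTSD, CTSH and CTSS) and 1 lower (ATP6V0D2) with DAC+ATRA than with DAC, where 6.09% of all transcripts were called higher and 5.26% lower. Against ATRA, 11 were higher and 2 lower (ATP6V1E2 and CTSC), beside 25.8% and 8.89% of all transcripts. The 11 were ATP6V0A1, ATP6V0D2, ATP6V1A, ATP6V1C1, CTSA, CTSB, CTSD, CTSH, CTSK, CTSS and CTSZ. Of these, ATP6V0A1 and CTSK passed the filter through DAC-containing libraries alone. The lower count was 1 in several alternatives, among them leaving out untreated library 2 or 3 and summing rows. The calls against ATRA were lost in 14 of 26 alternatives for ATP6V1C1 (log2FC 0.19 to 0.38) and in 12 of 26 for CTSC (-0.63 to -0.29). The DAC by ATRA interaction, the deviation of DAC+ATRA from the sum of both single effects on the log2 scale, was called for 0 of 24 rows by limma, DESeq2 and edgeR, beside 0.784% of all transcripts called higher and 1.67% lower by limma. At an unadjusted limma p under 0.05 it passed for 4 rows, ATP6V0D2 (1.07), CTSD (1.00), CTSH (0.70) and CTSZ (-0.29). The share of all transcripts at that threshold was not counted, so the 4 rows cannot be set against it.

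The wider lysosomal genes were read from lists of other symbols, and their values are given with DAC+ATRA against untreated unless stated. The counts stand beside the shares of all transcripts given above, that is 32.6% higher and 14.2% lower under the combination, 30.6% and 8.69% under DAC, and 6.47% and 2.66% under ATRA. Of the 95 tested rows of these lists 33 were not annotated protein-coding, and the values then describe that row. Among the rows named here these were CLN3, TPP1, LAMTOR2, TCIRG1, DMXL2 and GGA1 (retained intron), GAA and TPCN2 (undefined CDS) and FNIP1 (TEC, a type still to be tested by experiment). Of 17 tested membrane proteins of the lysosome 10 rose (58.8%) and 0 fell (median log2FC 0.47, against 0.20 for all transcripts), with 7 higher under DAC and 4 under ATRA. CLN3 and OSTM1 reached 10 normalized reads in no untreated library and entered the test through treated groups. Without them 8 of 15 rose, with 6 higher under DAC and 3 under ATRA. The row of CLN3, the Batten disease gene, had a log2FC of 2.77, given as a description. CTNS, the cystine exporter, rose by 1.46, while the channel TPCN2 gave -0.20 and TMEM192 -0.15, neither called. Of 28 other hydrolases 12 rose (42.9%) and 3 fell (10.7%; median 0.32), with 7 higher (25.0%) and 2 lower under DAC and 2 higher under ATRA. The fucosidase FUCA1 rose by 2.00 and the row of the tripeptidyl peptidase TPP1 by 1.69, while the thioesterase PPT1 gave -1.23 and the row of the glucosidase GAA -1.09, both called lower.

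Of 18 MiT/TFE and mTORC1 genes 8 rose (44.4%) and 1 fell (median 0.53), with 7 higher under DAC (38.9%) and 0 called under ATRA. TFEB held 17.5, 8.19 and 7.39 normalized reads in untreated libraries, 53.0, 33.1 and 46.8 with DAC, 16.9, 20.9 and 15.8 with ATRA, and 68.7, 60.0 and 65.5 with DAC+ATRA. TFEB thus rose with DAC (1.98, adjusted p = 5.5e-06) and DAC+ATRA (2.54, adjusted p = 1.4e-07) and was not called with ATRA (0.74, adjusted p = 0.090). RPTOR, SLC38A9 and TFE3 reached 10 normalized reads in no untreated library and likewise entered through treated groups. Without them 6 of 15 rose with DAC+ATRA and 6 with DAC. The log2FC of RPTOR, the mTORC1 scaffold, was 2.15 as a description, while the FNIP1 row gave -1.53 (called) and the LAMTOR2 row -0.74 (not called). Of 11 genes for V-ATPase assembly and regulation, including the a3 subunit, 3 rose (27.3%) and 1 fell (median 0.48), with 3 higher under DAC and 1 under ATRA. The a3 subunit gene TCIRG1 held 92.8, 109 and 102 normalized reads in untreated libraries, 222, 183 and 230 with DAC, 195, 214 and 201 with ATRA, and 386, 385 and 281 with DAC+ATRA. Its retained-intron row was called with DAC (1.05), ATRA (1.00) and DAC+ATRA (1.77). DMXL1, which also reached 10 in no untreated library, had a log2FC of 1.21 as a description. Without it 2 of 10 rose with DAC+ATRA, 2 with DAC and 1 with ATRA. The assembly chaperone VMA21 gave -0.61 (called) and the DMXL2 row -0.75 (not called).

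Of 8 sorting genes, 2 rose (25.0%) and 3 fell (37.5%; median -0.001), with 2 higher and 1 lower under DAC and 1 higher and 2 lower under ATRA. The mannose 6-phosphate receptor IGF2R rose by 1.56 and the row of the adaptor GGA1 by 0.82, while the sorting receptor SORL1 gave -0.85 and GNPTAB, which makes the mannose 6-phosphate tag, -0.60, both called lower. Of 7 tested genes listed as cathepsin inhibitors 2 rose and 2 fell (28.6% each, median -0.12), with 4 higher (57.1%) and 1 lower under DAC and 1 lower under ATRA. CST3, cystatin C, rose by 1.39, and CST7 and CSTA gave -1.32 and -0.77, both called lower. SERPINB9 held 0 in each untreated library, 240, 284 and 288 normalized reads with DAC, 0, 0.910 and 0 with ATRA, and 250, 305 and 306 with DAC+ATRA, and so passed the filter through DAC-containing libraries alone. Without it 1 of the 6 remaining genes of this list rose with DAC+ATRA and 3 with DAC. Whether each listed gene, SERPINB9 among them, inhibits a cathepsin was not tested. Of 4 azurophil granule genes MPO alone was tested and was called lower with each treatment, with a log2FC of -0.99 for DAC, -0.67 for ATRA and -1.80 for both together.

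**Figure D4:**
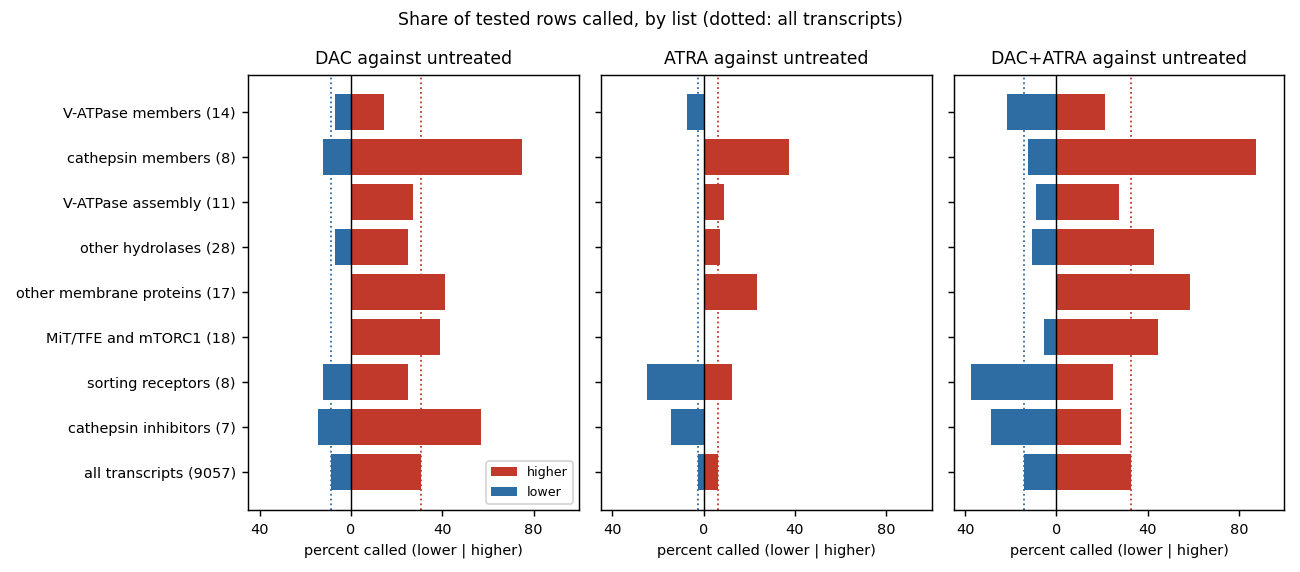
Bars show the percent of tested rows called higher (right) and lower (left) against untreated in each list, with the number tested in parentheses and dotted lines for all transcripts. The cathepsin bars reach 75.0%, 37.5% and 87.5% higher with DAC, ATRA and DAC+ATRA, while the V-ATPase bars reach 14.3%, 0% and 21.4%. These are shares of picked rows, and summing the rows of each symbol also called ATP6V0B and ATP6V1D higher with DAC+ATRA. The bars count CTSK and ATP6V0A1, without which (and without ATP6V0E1) DAC and DAC+ATRA give 71.4% and 85.7% for the cathepsins and 8.33% and 16.7% for the V-ATPase.

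Genes that mark the treatments moved as follows. All 5 were called higher with DAC+ATRA, 3 higher with ATRA, and 2 higher and 1 lower with DAC, where CYP26A1 had passed the filter through DAC+ATRA libraries alone and HIC1 through ATRA-containing ones. Without these genes, 3 of 3 were higher with DAC+ATRA, 2 with ATRA, and 1 higher and 1 lower with DAC. The retinoid dehydrogenase gene DHRS3 gave 3.58 and CD38 gave 4.25 with ATRA. LYZ, lysozyme, gave 2.27 with DAC and 0.11 with ATRA. HIC1 gave 1.55 for DAC, 5.91 for ATRA and 7.55 for both together. CYP26A1, which degrades retinoic acid, held 0, 0 and 0.924 normalized reads in untreated libraries and 516, 604 and 437 with DAC+ATRA.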

How the data were processed

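Total RNA of U937 cells was depleted of ribosomal RNA and sequenced as strand-specific paired-end libraries by the authors. According to the submitters' processing notes and the methods, reads were aligned to hg38 with STAR, counted per transcript with HTSeq and normalized with DESeq2. Versions, the annotation and the counting mode are not given in the sources used here. The values deposited by the authors are a signal, read counts divided by 1 size factor per library. All values in the table came out as whole reads within 0.001 read after division by the library's step, and recovered reads gave the depth and the alternatives with edgeR 4.0.16 and DESeq2 1.42.0. Columns carry library numbers 1 to 12 and the group, not the replicate number of the labels. No per-sample column was left out.

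Values were log2-transformed with a pseudocount of 1 and fitted with limma 3.58.1 (R 4.3.3, trend and robust), all 12 libraries in 1 fit on group means. The 9057 transcripts were 9016 protein-coding ones with at least 10 normalized reads in at least 3 libraries and 41 picked rows of named genes that were of another type or unmatched. Benjamini-Hochberg adjustment ran over all of them, with a threshold of 0.01 as used in the study. Transcripts were matched by ID to GENCODE 44 (hg38). The fit was tested on simulated counts. By rule, library values are given for members called in at least 1 comparison, and from each list the highest and lowest 2 changes with DAC+ATRA are named. TFEB, TCIRG1 and SERPINB9 are shown by library, a choice made after their values were seen. The members and lists were chosen with earlier results of these data known. The replicate number could not serve as a block. Alternatives covered the test, scaling, filter, features, samples, pseudocount, threshold and each library left out.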

Additional observations from a re-analysis of the deposited data

Results flagged for a closer look

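For a listed gene outside the member set the effect of ATRA differed with and without DAC in the interaction test, and for another it differed in value. GM2A, the ganglioside activator protein of the lysosome, held 2084, 2227 and 2192 normalized reads in untreated libraries, 2613, 2322 and 2315 with DAC, 4617, 4606 and 4226 with ATRA, and 2787, 2967 and 3049 with DAC+ATRA. Its interaction was -0.77 on the log2 scale (limma adjusted p = 0.00058), with a log2FC of 1.05 for ATRA alone and 0.28 for ATRA on top of DAC. CYP26A1 had an interaction of 6.73, a description without a test, since the gene passed the filter through its DAC+ATRA libraries alone. The value depends on the pseudocount, as the untreated libraries held at most 1 read. It held 6.34, 4.55 and 0.832 normalized reads with ATRA alone. None of the 24 tested member rows passed this test.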

How the results depend on the processing

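No paired analysis was possible because the columns of the table carry no replicate numbers. The member counts over both directions together changed by at most 1.5 times under every alternative except the demand for at least a 2-fold difference. By direction they moved further: the 4 lower calls with DAC+ATRA were 2 to 4 and the 3 higher calls with ATRA 2 to 3 with 1 library left out, the lower calls for DAC+ATRA against ATRA 1 to 2, and with DAC the 2 lower calls were 3 under some scalings. With the 2-fold demand 6 rows were called with DAC, 1 with ATRA, 8 with DAC+ATRA, 2 for DAC+ATRA against DAC and 5 against ATRA. The share of all transcripts under this demand was not counted, so these member counts cannot be set against it. Leaving out 1 library at a time gave 9 to 11, 3 to 4, 11 to 16, 3 to 4 and 10 to 14 in the same order, and 0 for the interaction. Restricting the fit to the groups compared leaves the interaction as it is. Of the values of single called genes under the alternatives, 1072 kept their side of the threshold, 113 lost it and 0 turned direction, and the cause was not tested. edgeR with TMM without DAC library 6, chosen after seeing the data, gave 10, 4, 14, 4 and 11 calls. Leaving out the 3 rows that reached 10 normalized reads in no untreated library, also chosen after seeing the data, gave 9, 4, 12, 4 and 11. On recovered reads edgeR with TMM called 3907, 990 and 4482 transcripts with DAC, ATRA and DAC+ATRA, against 3557, 827 and 4233 by limma. The share of calls that were higher was 77.9%, 70.9% and 69.7% by limma and 74.4% against ATRA, and 58.8 to 65.5%, 54.8 to 65.5%, 58.7 to 59.9% and 63.0 to 66.3% under 4 other scalings. At this depth 18 of 42 genes stayed under the filter.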
